A study of Arabidopsis thaliana with 8 samples.

Results

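The transcripts described here are those whose signal was lower after a gibberellin spray in every replicate of the experiment. The members were chosen by their own measured values: a geometric mean signal of 110 to 5000 units in the water-sprayed shoots and a log2 difference, GA4 minus water, at or below −0.3 in each of the 4 replicate numbers, which is a signal at least 1.23 times lower. Leaving out control spots, the array has 22746 probe sets, of which 13000 lay in that water range and 166 met the rule (1.28%). From these, 18 were left out by name, 6 by probe set and 12 by gene symbol, among them the gibberellin receptor genes GID1A and GID1B, which left 148 members. The 81 members without a listed gene could not be checked by symbol, so genes meant to be left out may be among them. Because the rule used every GA4 and water array, the differences below are a description and carry no test.

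All 8 arrays came from shoots of ga1-3 in the Ler background, a mutant blocked in an early step of gibberellin synthesis, 8 days old, raised under constant light at 22 °C with 2% sucrose in the agar. Water was misted onto the seedlings of 4 samples and 2 µM GA4, a bioactive gibberellin, onto those of the other 4, and shoots were cut 1 h later. The labels number the biological replicates 1 to 4 in each treatment without saying whether samples of the same number belong together. An SD given with a difference is that of the 4 differences within a number, not of the samples of a treatment. P-values without a block by replicate number rest on the spread between samples, and those with it on the spread of the differences. Neither a wild-type nor an unsprayed sample was part of the comparison, and the control shoots carry the ga1-3 mutation too. The comparison asks which transcripts change soon after gibberellin is supplied to a plant short of it, and the labels give a pilot by quantitative PCR as the reason for the harvest time.

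Gibberellin binds the GID1 receptors, and the complex brings DELLA proteins, which restrain growth, to the F-box protein SLY1 for breakdown. DELLA proteins do not bind DNA strongly themselves. They act through transcription factors, among them C2H2 zinc finger proteins of the INDETERMINATE DOMAIN family, and many genes that DELLA proteins activate are therefore switched down when gibberellin arrives. In a mutant that lacks gibberellin, DELLA proteins accumulate, and gibberellin applied from outside lowers such transcripts within the first hours.

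Of 4 green-tissue genes chosen as markers, only the Rubisco activase gene RCA had a probe set with 1 gene listed here. Its geometric mean was 19728 units in water and 21867 in GA4. Of the root genes, EXPA7 and EXPA18 were below 110 units in both treatments, at 77.3 and 42.6 in water, while PYK10, a beta-glucosidase gene abundant in roots and hypocotyls, was at 11521 and 12109. Of 2 shoot apex genes, only CLV3 had a probe set with 1 gene listed, at 7.1 and 7.7 units. Replicates 1 and 2 had a higher ratio of 3′ to 5′ signal than replicates 3 and 4 for GAPDH and ubiquitin, a ratio that rises with degraded or incompletely copied RNA. For GAPDH the ratio was 2.25, 2.13, 0.958 and 1.14 on water arrays 1 to 4 and 3.50, 5.43, 0.980 and 1.10 on GA4 arrays 1 to 4. Within replicates 1 and 2 the GA4 array thus had the higher GAPDH value of the pair, and the higher ubiquitin value too. The ubiquitin ratio ran from 1.66 to 4.17 in the first 2 replicate numbers and from 1.21 to 1.39 in the last 2. The actin ratio ran from 3.67 to 13.6 and from 3.03 to 5.63, with overlap. In replicate 1 it was higher on the water array, 13.6 against 6.41, and in replicate 2 lower, 3.67 against 5.34.

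The members were mostly of middling abundance, with a median geometric mean of 439.9 units in water, close to the 429 of all 13000 probe sets in the same range. In GA4 the median was 256 units. Their mean difference over the 4 replicate numbers had a median of −0.76 and ran from −2.83 to −0.35, while that of all 13000 had a median of 0.00. In 35 members the mean difference was below −1, and in 6 below −2. Signals depend on the amount of a transcript relative to the rest of the RNA of the whole shoot, so fewer cells that express a gene and less RNA per cell cannot be told apart.

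**Figure D1:**
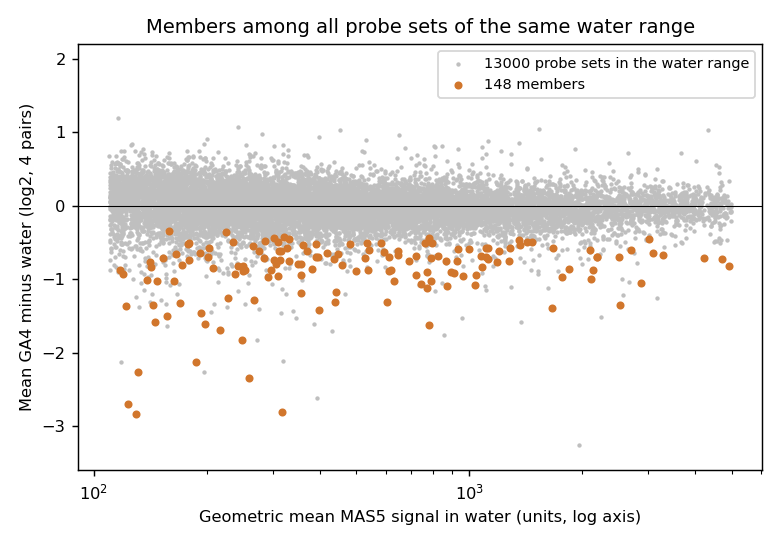
Mean difference, GA4 minus water on the log2 scale over 4 replicate numbers (vertical axis), against the geometric mean MAS5 signal in water in units (horizontal log axis), for the 13000 probe sets in the water range (grey) and the 148 members (orange). The members lie between −2.83 and −0.35 over the whole range of abundance, and the 6 members below −2 all have water signals of at most 317 units; grey points among the members missed the rule in at least 1 replicate number or were left out by name.

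Among the members the largest differences belonged to dim transcripts. Over all 13000 probe sets the largest mean difference downward, −3.26, was that of a probe set outside the members at 1000 to 5000 units in water. In 28 members the geometric mean in GA4 was below 110 units, the level used as the lower bound for water. The deposited table has no detection calls and no background level was estimated, so whether a value there stands above background is unknown. These 28 had a median difference of −1.34, and the size of each is uncertain. Single arrays below 110 units also occurred outside these 28, such as GA4 array 1 of AT5G03230 at 96.7. Some water arrays were below that level too, such as 59.5 for AT1G62520 in replicate 1. The other 120 members had a median of −0.71 and ran down to −1.63, with 15 of them below −1. By abundance in water, the median difference was −0.88 for the 47 members at 110 to 300 units, −0.74 for the 66 at 300 to 1000 and −0.70 for the 35 above that.

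Every GA4 array lay below every water array for 67 of the 148 members, against 204 of all 13000 probe sets in the range (1.57%). Since the rule used those arrays, nothing is read from that share. In the other 81 the signal on at least 1 GA4 array reached that on a water array of another number, although it was lower than on the water array of its own number. The 2 ways of fitting all genes differed accordingly. In the limma fit without a block, 0 of the 133 members that could be tested passed an adjusted p of 0.05 (0.0147% of 13648 probe sets passed on the lower side), and 92 had an unadjusted p under that level (1.77%). With the replicate number as a block, 23 passed (0.256%) and 131 had an unadjusted p under it (6.63%). The fit and the rule rest on the same differences, so these counts are no support for the members.

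The number of members depended on all 4 replicate numbers. Without replicate 1, 2, 3 or 4 the rule found 236, 238, 311 or 328 probe sets, of which 144 to 147 were among the 148. On replicates 3 and 4 alone it found 487, and on replicates 1 and 2 alone 1562. Just inside the threshold lay 3 probe sets without a listed gene, 253101_at, 251174_at and 259229_at, whose differences nearest to 0 were −0.3026, −0.3021 and −0.3003. Just outside lay 262197_at at −0.298, AT3G19920 at −0.297 and AT2G34340 at −0.296 in their least lowered replicate number, with mean differences of −0.60, −1.29 and −0.69.

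Leaving 1 replicate number out gives a measurement that this choice did not use, although the rule for the 148 members did. Of the probe sets so chosen, 144 to 147 were members, which make up nearly all of those at or below −0.3 in the number left out. The shares are therefore a description and no support for the members. Of the 236 probe sets chosen on replicates 2, 3 and 4, 179 (75.8%) were lower in replicate 1, against 49.3% of all probe sets in the water range of those 3 replicates, and 147 (62.3%) were at or below −0.3, against 26.0%. For the 238 chosen without replicate 2, 79.4% were lower there, against 53.6% of all, and 60.9% against 25.1% were at or below −0.3. With replicate 3 left out these shares were 74.6% of 311 against 48.9%, and 47.3% against 14.2%. With replicate 4 left out they were 76.8% of 328 against 48.9%, and 45.4% against 11.6%. In the number left out the median difference was −0.53, −0.50, −0.27 and −0.26 for replicates 1 to 4, less than the −0.65 to −0.74 in the 3 numbers used for the choice.

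**Figure D2:**
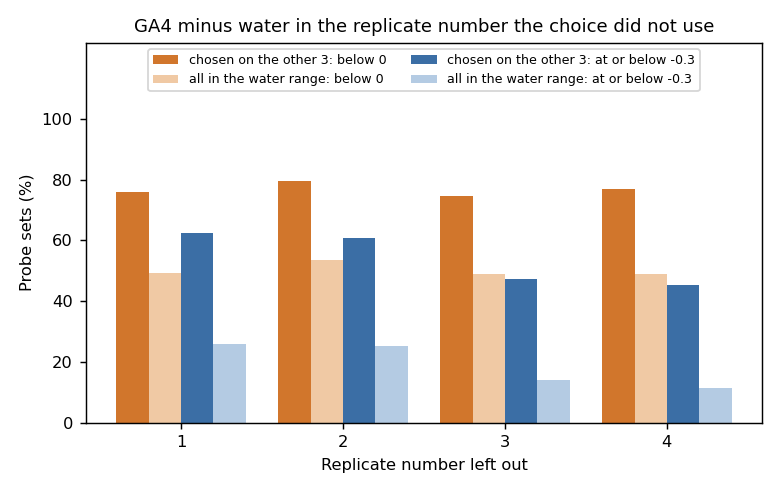
Share of probe sets (vertical axis, percent) that were below 0 (orange) or at or below −0.3 (blue) in the replicate number left out (horizontal axis), for probe sets chosen on the other 3 numbers (dark bars) and all probe sets in the water range (light bars). The dark bars stand above the light ones for all 4 numbers, at 74.6% to 79.4% against 48.9% to 53.6% below 0. Nearly all probe sets in the dark blue bars are members, so the bars are a description and no support for the members.

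The difference of the members was not the same size on all arrays. Median differences were −0.82, −0.82, −0.65 and −0.58 in replicates 1 to 4, while all probe sets in the range had medians of 0.01, −0.04, 0.00 and 0.00. The mean of replicates 1 and 2 was lower than that of replicates 3 and 4 for 108 members and higher for 40, with medians of −0.90 and −0.61. A gap of at least 0.5 was found for 39 members with the larger difference on replicates 1 and 2 and for 7 with the larger difference on replicates 3 and 4. Over all 13000 probe sets the quartiles of the difference were also wider on replicates 1 and 2, −0.26 to 0.23 against −0.13 to 0.13. The part of the 3′ to 5′ ratio in this gap was not tested.

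**Figure D3:**
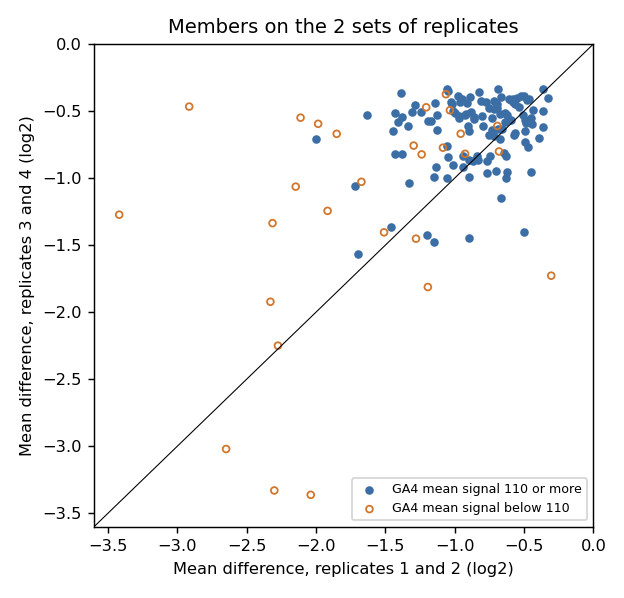
Mean log2 difference of each of the 148 members on replicates 1 and 2 (horizontal axis) against that on replicates 3 and 4 (vertical axis), with the line of equality. Filled points have a geometric mean GA4 signal of 110 units or more and open points less; 108 points lie above the line, where the difference was larger on replicates 1 and 2.

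Of the 148 members, 67 had 1 gene listed and 81 had none, and no gene occurred more than once. All 67 were protein-coding in the TAIR10.1 gene table. For 44 of them a role is described from general knowledge, and 23 are given by locus only. These roles were assigned after the members were known, so the size of a group is not compared with the rest of the genome. Nothing is read either from how many in a group had every GA4 array below every water array, since the rule used those arrays. Differences are given as mean ± SD over the 4 replicate numbers.

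Among the carriers were 4 genes, with mean differences of −1.03 to −0.51. AT5G18840, a major facilitator protein of the sugar carrier type, measured 784, 941, 775 and 684 units on water arrays 1 to 4 and 401, 381, 374 and 397 on GA4 arrays 1 to 4. The GA4 values were tightly grouped and lay below all water values, with a difference of −1.03 ± 0.22. GTR1, which carries glucosinolates and has been described as a gibberellin carrier as well, was at 2549.8, 1004, 2029 and 1866 in water and 627, 562, 1366 and 1362 in GA4. Its groups overlapped, since the water array of replicate 2 was lower than the GA4 arrays of replicates 3 and 4, and its difference of −0.97 ± 0.72 was largest in replicate 1, at −2.02, and between −0.84 and −0.45 in the others. AT5G14120, a nodulin-like protein of the same superfamily as the sugar transporter, was at 3392, 2136, 3741 and 4244 in water and 1926, 1235, 2389 and 3142 in GA4 (−0.67 ± 0.18). This bright transcript kept the order of the replicate numbers in both treatments, so that the groups overlapped while every number was lower in GA4. AT3G21690, a MATE efflux protein, was at 634 to 840.1 in water and 475 to 612 in GA4 (−0.51 ± 0.22), without overlap.

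Genes of protein breakdown formed a group of 6, with 5 peptidases and 1 peptidase inhibitor, at −1.35 to −0.60. AT5G47550, a cystatin that inhibits papain-type cysteine proteases, was the brightest member of all, at 6864, 5611, 4058 and 3785 units in water and 3995, 3342, 2416 and 1892 in GA4. Its level was higher on replicates 1 and 2 than on 3 and 4 in both treatments, and its difference varied little, at −0.82 ± 0.12. SCPL45, a serine carboxypeptidase-like protein, was at 1087, 933, 920.0 and 731 in water and 692, 579, 354 and 385 in GA4, without overlap. In contrast to most members its difference was larger on replicates 3 and 4, at −1.38 and −0.92, than on replicates 1 and 2, at −0.65 and −0.69. The aspartyl protease AT3G52500 was even across water arrays, at 2858, 2506, 2791 and 2651, and lower on all GA4 arrays, at 1599, 1752, 1978 and 1817 (−0.60 ± 0.16). A further aspartyl protease, AT1G25510, was dim, at 199, 139, 122 and 126 in water and 32.2, 84.6, 57.9 and 63.9 in GA4, so its −1.35 ± 0.86 is uncertain in size. AT4G16563, also an aspartyl protease, was at −0.91 ± 0.49, and the papain-type protease AT3G45310 at −0.61 ± 0.22.

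The 8 regulators of transcription ran from −2.83 to −0.47, with a median of −0.71. The GA4 arrays all lay below the water arrays for 1 of them, AT5G10970 (67 of all 148 members, 1.57% of the water range). AT5G10970, a C2H2 zinc finger protein, was at 105, 166, 137 and 117 units in water and 15.8, 28.0, 33.7 and 7.27 in GA4, the largest mean difference of any member at −2.83 ± 0.84. All its GA4 values were far below 110 units, so the size is uncertain. AT5G61590, whose synonym is DEWAX and which represses genes of wax synthesis, was one of the brightest members, at 4636, 3370.0, 5383 and 5924 in water and 1953, 1923, 4046 and 4322 in GA4. Its difference of −0.73 ± 0.39 was −1.25 and −0.81 on replicates 1 and 2 and −0.41 and −0.45 on replicates 3 and 4.

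AT3G45260, which belongs to the INDETERMINATE DOMAIN family of zinc finger proteins, was at 196, 263, 333 and 379.8 in water and 109, 143, 239 and 244 in GA4, with overlap between the groups and a difference of −0.71 ± 0.19. LHW (LONESOME HIGHWAY), a bHLH protein that sets the number of vascular cells in the root, was at 522, 447, 203 and 255 in water and 253, 240.0, 148 and 163 in GA4. Here too the replicate sets differed in level in both treatments, by more than the treatments did within replicates 3 and 4, and the difference was −0.76 ± 0.26. STZ, also called ZAT10, a zinc finger repressor that is induced by salt, cold and drought, was at 930.1, 798, 2290.3 and 1994 in water and 669, 606, 1707 and 1349 in GA4. Its differences were small and even, at −0.47, −0.40, −0.42 and −0.56. The CCT-motif protein AT5G53420 was at −0.70 ± 0.37, the bHLH protein AT1G05710 at −0.52 ± 0.15, and ZAP1, a WRKY protein kept because its listed symbol does not begin with WRKY, at −0.51 ± 0.11.

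Protein kinases numbered 6 and were alike in size, with mean differences from −0.83 to −0.69. The GA4 arrays lay below all water arrays for 4 of them (67 of all 148 members, 1.57% of the water range). AT1G70740 was at 188, 215, 256 and 335 units in water and 101, 151, 161 and 143 in GA4 (−0.83 ± 0.31). AT5G40540 was at 1054, 923, 870.3 and 876 in water and 675, 412, 557 and 586 in GA4 (−0.76 ± 0.27). AT1G80870 varied least among the kinases, with 207, 229, 171 and 204 units in water, 128, 145, 113 and 116 in GA4 and differences of −0.69, −0.66, −0.60 and −0.82. The S-locus lectin receptor-like kinase AT4G27300 was at −0.70 ± 0.34, the leucine-rich repeat receptor-like kinase AT2G27060 at −0.79 ± 0.21 and AT1G80640 at −0.75 ± 0.31. A type 2C protein phosphatase, AT4G31860, was at −0.44 ± 0.15.

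All 3 P-loop ATPases were below the water arrays on every GA4 array (67 of all 148 members, 1.57% of the water range). AT5G17760, an AAA-type ATPase, was at 298, 245, 485 and 454 units in water and 116, 99.0, 236 and 222 in GA4, a difference of −1.19 ± 0.17 and below −1 in each number. AT1G43910, of the same type, was at 795, 432, 496 and 486 in water and 334, 204, 302 and 359 in GA4 (−0.87 ± 0.37). AT1G73110, which resembles Rubisco activase, was at 175, 260.3, 163 and 184 in water and 113, 162, 111 and 112 in GA4. Its groups were barely apart, with 162.4 on GA4 array 2 and 162.8 on water array 3. Its 4 differences lay between −0.72 and −0.55.

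Enzymes of acyl and lipid chemistry numbered 4, at −0.96 to −0.59. The GA4 and water arrays were apart for 1 of them, AAE16 (67 of all 148 members, 1.57% of the water range). AAE16, an acyl activating enzyme, was at 399, 335, 249.8 and 249 in water and 179, 181, 169.9 and 197 in GA4, so that the GA4 arrays were nearly level while the water arrays were not (−0.74 ± 0.36). The HXXXD-type acyltransferase AT2G39980 was at 679.7, 966, 1391 and 941 in water and 341, 286, 837 and 736 in GA4 (−0.96 ± 0.59). A related acyltransferase, AT5G01210, was at −0.59 ± 0.36 and the GDSL-type lipase AT1G28610 at −0.61 ± 0.19.

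Families of light signalling gave 2 members, which differed widely in size. AT3G15570, of the NPH3 family that acts in phototropism, was at 246, 193, 199.8 and 145 in water and 53.4, 110.01, 71.3 and 58.0 in GA4 (−1.46 ± 0.58). No GA4 array reached the water arrays, but most GA4 values were below 110 units. AT1G18810, of the phytochrome kinase substrate family, had the smallest mean difference of all members and the least variable one, with −0.35, −0.38, −0.33 and −0.35. It measured 234, 159.9, 144 and 118 units in water and 184, 123, 115 and 92.6 in GA4, so the spread over replicate numbers was larger than the difference in any of them.

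**Figure D4:**
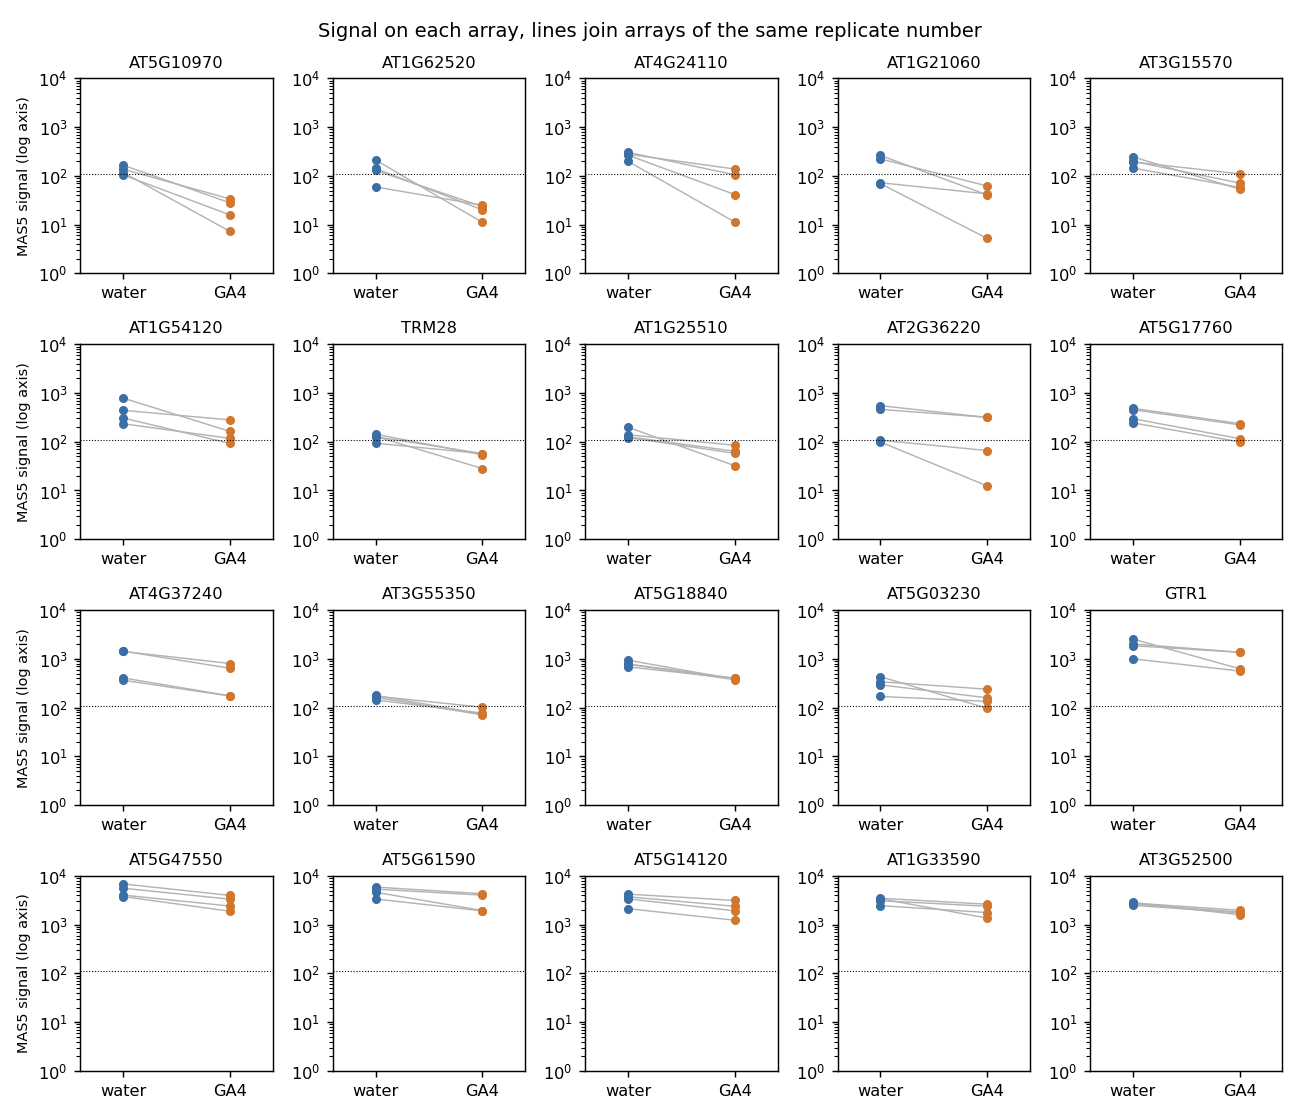
MAS5 signal on each array (vertical log axis, units) in water (blue) and GA4 (orange) for the 15 members with 1 listed gene and the largest mean difference and the 5 with the highest water signal, with lines joining arrays of the same replicate number and a dotted line at 110 units. Every line runs downward, and the genes with the steepest lines, such as AT5G10970 and AT1G62520, end far below the dotted line.

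Other members with a known role included ATG8E, a ubiquitin-like protein of autophagy, at 539, 457, 758 and 751 in water and 184, 280.1, 512 and 459 in GA4 (−0.88 ± 0.45). TRM28, of a family of TON1-recruiting proteins tied to cortical microtubules, was at 143, 127, 129 and 93.4 in water and 53.8, 57.3, 28.2 and 57.1 in GA4. Its GA4 signals were all below 110 units, so that the size of −1.37 ± 0.62 is uncertain. The thaumatin-like protein AT4G36010 was at 1801, 1764, 1648 and 2198 in water and 1142, 469, 1322 and 1465 in GA4, with the largest difference, −1.91, in replicate 2 and −0.66 to −0.32 elsewhere. AT1G33590, a leucine-rich repeat protein, was at 3404, 2463, 3109 and 3491 in water and 1370.4, 1777, 2393 and 2633 in GA4, with −1.31 in replicate 1 and −0.47 to −0.38 in the others. For both of these bright transcripts 1 replicate number therefore set much of the mean. UGT76E11, a UDP-glycosyltransferase, was at −0.74 ± 0.28, with a GA4 mean of 107 units, so its size is uncertain. The 2-oxoglutarate-dependent oxygenase AT3G60290 was at −0.88 ± 0.14. The TRAF-like protein AT3G28220 was at −0.58 ± 0.07, its 4 differences lying between −0.68 and −0.51 although its water signal ran from 829.9 to 2251 units.

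Among the loci given without a role, AT1G54120 was at 786, 442, 308 and 234 units in water and 163, 280.3, 92.3 and 117 in GA4 (−1.41 ± 0.72), with overlap. AT4G37240 was at 407, 364, 1442 and 1420.3 in water and 174, 173, 642 and 803 in GA4, so replicates 3 and 4 were far brighter than 1 and 2 in both treatments while the difference stayed at −1.07 ± 0.18. AT3G55350 was at 178, 162, 172 and 143 in water and 73.4, 70.8, 102 and 77.2 in GA4, below all water values (−1.03 ± 0.25). Its GA4 values were all below 110 units, so the size is uncertain. The even differences of AT1G05575 lay between −0.70 and −0.56, from 651, 488, 634 and 607 in water to 435, 331, 390.4 and 385 in GA4.

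Others of these loci varied widely between replicate numbers. AT4G24110 was at 267, 199.7, 279 and 305 in water and 41.4, 11.3, 138 and 106 in GA4, with differences from −4.15 in replicate 2 to −1.01 in replicate 3. Its mean of −2.35 was −1.74 without replicate 2. AT1G62520 was at 59.5, 142, 212 and 130.1 in water and 24.977, 20.048, 11.1 and 23.4 in GA4 (−2.70 ± 1.23). AT1G21060 was at 263, 223, 69.5 and 72.4 in water and 40.5, 62.0, 5.20 and 42.8 in GA4 (−2.26 ± 1.27). In these 3 the GA4 values were mostly below 110 units, so the sizes are uncertain. AT2G36220 was at 108, 98.7, 549.5 and 461 in water and 65.9, 12.4, 315 and 317 in GA4, with −2.9955 in replicate 2 and −0.80 to −0.54 in the others. Its signals in replicates 1 and 2 were below 110 units in both treatments, so these sizes are uncertain as well. AT5G03230 was at −0.97 ± 0.82, with −2.16 in replicate 1.

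Probe sets without a listed gene made up 81 of the 148 members. The largest difference with a GA4 mean above 110 units was that of 246195_at, which was at 981, 887, 791 and 546 in water and 280.2, 296, 224 and 219.9 in GA4, without overlap and by −1.63 ± 0.24. The signal of 266912_at was 357, 664, 276 and 154 in water and 95.5, 102, 9.47 and 44.5 in GA4, and that of 253103_at 118, 200.2, 279.6 and 186 in water and 14.4, 64.9, 61.4 and 58.9 in GA4. For 266150_s_at, a probe set of a type that can bind several related transcripts, the values were 343, 227, 236 and 208 in water and 99.1, 31.8, 96.7 and 79.7 in GA4. The groups overlapped for none of these 4 probe sets, and the GA4 values of the last 3 were all below 110 units. Most uneven was 252368_at, with differences of −4.28, −1.54, −0.57 and −0.37, whose mean of −1.69 was −0.83 without replicate 1. Its GA4 values were all below 110 units as well. The mean of 266912_at was −2.81, and −2.13 without replicate 3. At the other end, and chosen after its values were seen, 245501_at had differences of −1.06, −1.05, −0.94 and −1.06.

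**Figure D5:**
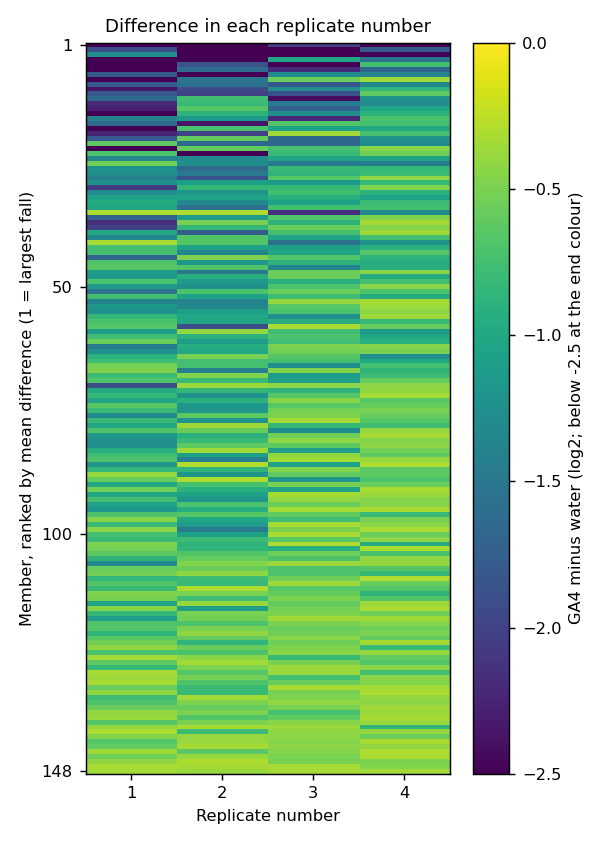
Log2 difference, GA4 minus water, of the 148 members (rows, ranked by mean difference) in replicates 1 to 4 (columns), where darker colour stands for a larger difference and values below −2.5 share the end colour. Dark cells are more frequent in replicates 1 and 2, and the largest difference of a member was in replicate 1 for 56, in replicate 2 for 50, in replicate 3 for 25 and in replicate 4 for 17 members.

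The spread of the 4 differences had a median SD of 0.31 among the members and 0.29 among all 13000 probe sets. The SD was below 0.1 for 10 members and above 1 for 7. Among the water arrays the members' log2 signals had a median SD of 0.36 and among the GA4 arrays 0.49, against 0.31 and 0.35 for all probe sets in the range.

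The genes of the members were spread over all 5 chromosomes, with 24 of 67 (35.8%) on chromosome 1, against 25.7% of the 7069 listed genes in the water range. Chromosomes 2, 3, 4 and 5 held 8, 13, 8 and 14, or 11.9%, 19.4%, 11.9% and 20.9%, against 14.6%, 20.5%, 14.6% and 23.9%. In the TAIR10.1 gene order, SCPL45 and AT1G28190 lay 9 genes apart and AT3G45260 and AT3G45310 6 genes apart. Among the 67 members with a listed gene these were the only pairs within 10 protein-coding genes of each other. The 81 members without a listed gene could not be placed. The genomic span of the members' genes had a median of 2264 bases, against 2365 for the listed genes of the range, with lower quartiles of 1342 and 1732.

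Of 14 genes listed for gibberellin perception and signalling, 6 had a probe set with a gene listed here, and 3 of them, GID1A, GID1B and SLY1, met the rule and were left out by name, with mean differences of −1.61, −1.44 and −0.65. GID1C, SNE and SPY were at 0.05, −0.20 and −0.05. None of the 17 genes of gibberellin synthesis and inactivation had a probe set listed with 1 gene here.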

How the data were processed

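For each Affymetrix ATH1 array the authors deposited linear signal intensities, 1 for every probe set. The submitters' processing notes name MAS5, with no version. The scaling of these intensities by the authors is seen in the 2%-trimmed means of 500.04 to 500.05 on all 8 arrays, so no scaling was added. Signals were floored at 1 before taking log2. Differences are GA4 minus water within a replicate number. The number of arrays limits the precision. Genes came from the platform annotation, updated through the TAIR10.1 gene table, which holds no product descriptions, so the keyword families planned from it matched few genes and were not used. The planned search of promoters for motifs was not run, as no promoter sequences were used here.

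All genes were fitted with limma 3.58.1 in R 4.3.3 (lmFit, eBayes with trend, 2-sided, Benjamini-Hochberg over 13648 probe sets, the 60% with the highest mean log2 signal), without a block and, as an alternative, with the replicate number as a block. Arrays of the same number deviated together, with correlations of 0.616 to 0.685 in all 4 pairs. Correlations between arrays of different numbers were not set beside these. The values therefore do not show that samples of the same number belong together. The code was tested on simulated data. Other tables were made in Python 3.11.15 with pandas 2.3.3.

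The members and lists were chosen with earlier results of these data known. Genes were named by rule: members with 1 gene that had the 15 largest mean differences, the 5 smallest and 5 largest SDs and the 5 highest water signals, the 5 largest differences without a listed gene, and the probe sets next to the threshold. Other members given with a role, and 245501_at, were chosen after their values were seen. Alternatives were a floor of 16, quantile normalization, thresholds of −0.2 and −0.5, a water minimum of 200 units, no filter, and each replicate number left out.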

Additional observations from a re-analysis of the deposited data

Results flagged for a closer look

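A single array stood far from the other 3 of its treatment in 4 of the 60 groups of 4 arrays examined for the 30 members named by the rule, by a gap on the log2 scale that took up most of the group's range (Dixon's test at the 95% level). Chance alone gives about 1 in 20 such groups. For 253103_at the GA4 array of replicate 1 was low, at 14.4 units against 64.9, 61.4 and 58.9. For 252368_at the same array was low, at 25.8 against 83.0, 90.5 and 105. For TRM28 the GA4 array of replicate 3 was low, at 28.2 against 53.8, 57.3 and 57.1. For AT1G73110 the GA4 array of replicate 2 was high, at 162.4 against 112.8, 111.3 and 111.8. The water array of replicate 2 was also the highest of its treatment, at 260.3. The difference in replicate 2, −0.68, lay within the range of −0.72 to −0.55 over all 4 numbers.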

How the results depend on the processing

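The count of 148 members was 148 with a floor of 16, 159 after quantile normalization (135 of them shared), 122 with a water signal of at least 200 units and 120 with a GA4 signal of at least 110. It was 296 with a threshold of −0.2 and 53 with −0.5. Leaving out 1 replicate number gave 236 to 328. Chosen after seeing the data, replicates 3 and 4 only gave 487 and replicates 1 and 2 only 1562. The members' median difference of −0.76 was −0.79 after quantile normalization, −0.82 to −0.71 without 1 replicate number, −0.61 on replicates 3 and 4 and −0.90 on replicates 1 and 2. All 148 members were lower in all 4 numbers after quantile normalization. For the 30 members named by the rule, 60 values with a floor of 16 or after quantile normalization included none that changed sign and 2 that moved by more than the SD over replicate numbers, AT1G73110 from −0.65 to −0.74 and AT1G18810 from −0.35 to −0.42, both after quantile normalization. Leaving out 1 of 4 replicate numbers cannot turn a direction that the rule fixes in each number, nor move a mean by more than that SD, so only sizes are given: 3 of 120 such values moved by over 1.5 times, 252368_at to −0.83 without replicate 1, AT4G24110 to −1.74 without replicate 2 and 266912_at to −2.13 without replicate 3.

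Over all probe sets, 2 passed without a block, 40 with the replicate block, 32 with a block on replicates 1 and 2 against 3 and 4, 3 after quantile normalization, 1 with no filter and 2 with a floor of 16. Without 1 replicate number the counts were 0 to 1, and 17, 8, 51 and 42 with the replicate block and without replicates 1 to 4. The 0 without replicate 2 and without replicate 3 stand beside 224 and 248 at an unadjusted p under 0.05 (limma) and 8 and 51 with the block; the cause was not tested. Whether signals under 110 units stand above background is unknown, which limits the sizes of the 28 members with a GA4 mean below that level. It also limits single differences of other members that rest on an array below it.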
